A study of Homo sapiens with 9 samples.

Results

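The integrated stress response genes described here are 10 genes of the ATF4 pathway: ATF4, ATF5, CEBPB, DDIT3, TRIB3, PPP1R15A, CHAC1, ASNS, DDIT4 and SESN2. They were taken by name from a count table of 59453 genes, and all 10 passed the expression filter that left 16556 genes for testing. The cells were MDA-MB-231, a long-established human line of triple-negative breast cancer, grown in T75 flasks in DMEM with serum. The 9 libraries form 3 groups of 3 replicates: cells left untreated, cells exposed for 8 h to TEPA, a copper chelator, and cells exposed to it for 24 h. The labels give 8 mM TEPA. The study's results text and its methods passage on RNA sequencing give 4 mM. Another methods passage names both doses, so the dose is not settled here. A single untreated group served both times, so the comparisons at 8 h and 24 h share their control libraries. The labels do not say whether the replicates are separate cultures, and the p-values then measure only the spread among these libraries. The sources used here name no control for medium or handling at each time.

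The integrated stress response starts when a stress-sensing kinase phosphorylates the translation factor eIF2. General protein synthesis then slows, while ATF4 mRNA, which carries upstream reading frames in its leader, is translated more. The ATF4 protein pairs with C/EBP proteins on composite DNA elements and raises transcription of genes for amino acid supply, redox balance, feedback control and, when stress lasts, cell death. RNA-Seq reads the mRNA levels of ATF4 and of its targets. Translation of ATF4, its protein and eIF2 phosphorylation were not measured in these counts.

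Total counts per library were between 34633755 and 49342659. Mitochondrially encoded genes took 1.79 to 2.91% of the counts in untreated libraries, 3.61 to 4.02% at 8 h and 1.89 to 2.02% at 24 h, so the 8 h libraries stood apart in this share. VIM and CD44, mesenchymal markers of this line, were at 3674 and 859 CPM in untreated cells (CPM is the count of a gene scaled to library size), while PGR, the progesterone receptor, had no counts and ESR1, the estrogen receptor, was at 0.155 CPM. ERBB2, the receptor HER2, was at 81.4 CPM, and the epithelial markers KRT8, KRT18, EPCAM and CDH1 were at 405, 301, 1.13 and 0.624 CPM. CDH1 (E-cadherin) was called higher at 24 h, at 2.33, 3.34 and 3.89 CPM (2.33 on the log2 scale), and ERBB2 lower (-0.62). The other epithelial markers did not rise alike, with means at 24 h of 416 CPM for KRT8, 261 for KRT18 and 1.12 for EPCAM. At 8 h the mean of CDH1 was 0.351 CPM. VIM and CD44 had means of 4387 and 1077 CPM at 8 h and of 3387 and 865 CPM at 24 h. Of 10 markers of blood, endothelial and fibroblast cells, PTPRC, CD3E, CD79A, LYZ, VWF and DCN stayed at 5 counts or fewer in every library, and CD3E was at 0. The summed level of the 10 markers was 45.9 to 59.9 CPM in untreated cells, 58.2 to 63.2 CPM at 8 h and 118 to 126 CPM at 24 h, nearly all from PDGFRB, COL1A1 and PECAM1. Their part in the results was not tested. In bulk RNA, fewer cells with a transcript and less of it per cell cannot be told apart.

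Promoter letters are shown first, since ATF4 acts through a known element, TGATGNAA, the core of the C/EBP-ATF response element. Windows from 250 bases before to 50 bases after each start were read from RefSeq promoters on GRCh38.p14, in which all 10 genes matched. CHAC1 and ASNS held the core, on either strand, against 3.62% of 35116 windows. A gene was counted if any of its windows matched, while the shares here are over single windows, so they are not like measures. The more specific form TGATGCAA, which is contained in the core, was found in CHAC1 alone, against 0.866% of windows. No window of the 10 genes held the ER stress element, which 0.0769% of windows held. The same genes held each element when only the 250 bases before the start were read. The stretches below show 30 bases around each match, 5′ to 3′, with the 8 matching letters in capitals.
CHAC1 (chr15:40953251-40953280, plus strand): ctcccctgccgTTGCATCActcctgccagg
ASNS (chr7:97872458-97872487, minus strand): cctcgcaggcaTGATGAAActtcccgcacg
The CHAC1 letters read TGATGCAA on the minus strand and begin at position -209 from the RefSeq start at 40953471, and those of ASNS begin at -68 from the RefSeq start at 97872408. In both genes the GENCODE gene, whose span is given with the values below, starts farther upstream and includes the match. A match of letters is not a measurement of binding, and genes of this pathway can hold elements outside these windows.

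TEPA was followed by changes in both directions among the 10 genes. At 8 h DDIT4, DDIT3, CEBPB, ATF4 and ATF5 fell, and ASNS, SESN2 and PPP1R15A rose, while TRIB3 and CHAC1 did not pass the test. At 24 h DDIT3, ATF5, PPP1R15A, DDIT4, TRIB3 and ATF4 fell, ASNS and CHAC1 rose, and CEBPB and SESN2 did not pass. A gene was called at a p under 0.05 after Benjamini-Hochberg adjustment over the whole table, in the quasi-likelihood test of edgeR. At 8 h, 3 of the 10 genes were called higher and 5 lower, where 25.2% of all tested genes were called higher and 24.5% lower. At 24 h, 2 were called higher and 6 lower, where the background was 25.7% higher and 26.8% lower. With a log2 fold change beyond 0.5 as well, 3 genes passed at each time, against a background of 17.8% at 8 h and 18.7% at 24 h. The untreated and treated libraries did not overlap for 8 genes at 8 h and for 7 genes at 24 h, but this was also so for 57.8% and 57.2% of all tested genes. The median log2 fold change of the 10 genes was -0.15 at 8 h and -0.25 at 24 h, beside medians over all tested genes of -0.00 and 0.00.

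**Figure D1:**
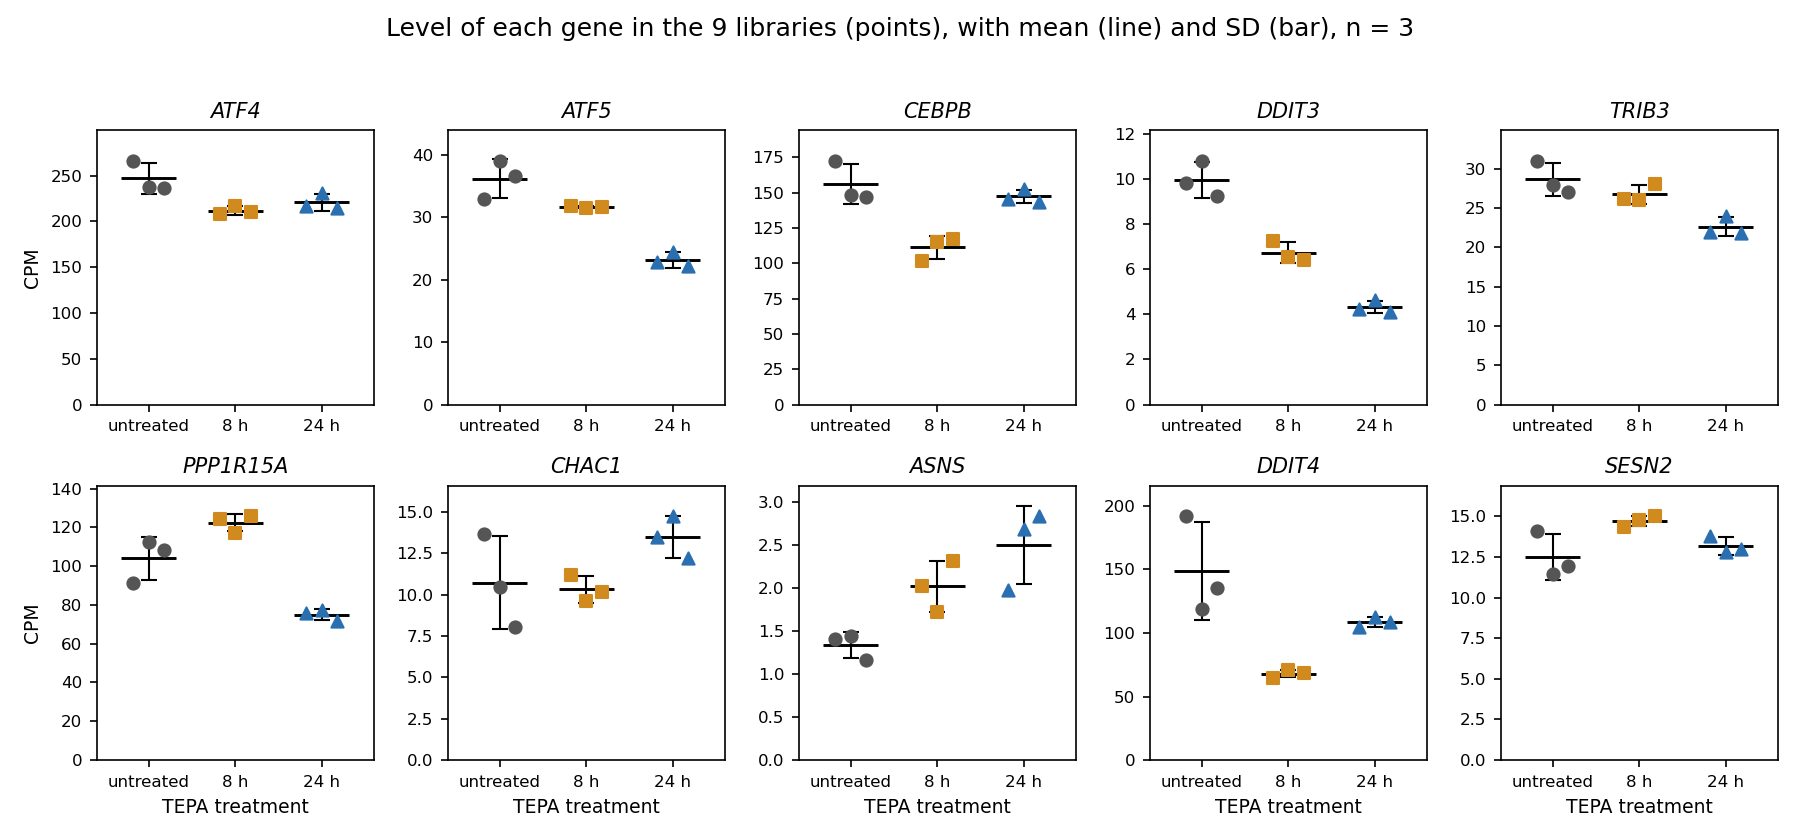
Level of each gene in CPM (y axis, from 0, a scale of its own in each panel) in the 9 libraries by treatment (x axis), with points for libraries, a line for the mean and a bar for the SD (n = 3). DDIT3 stepped down from a mean of 9.96 to 6.74 and 4.34 CPM without overlap between groups, and 1 untreated library of DDIT4 stood at 192 CPM, above the other two.

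Library sizes for CPM were scaled by TMM. Values stand in replicate order, and group means with the SD over 3 libraries. To compare genes with each other, CPM was divided by the length in kb of the canonical GENCODE transcript, although reads of all exons of a gene were counted. On this scale in untreated cells, ATF4 was highest at 174 ± 11.8, followed by DDIT4 at 85.2 ± 22.0, CEBPB at 84.8 ± 7.83, PPP1R15A at 44.2 ± 4.77 and ATF5 at 18.0 ± 1.52 CPM per kb. TRIB3 at 12.2 ± 0.891, DDIT3 at 11.0 ± 0.885, CHAC1 at 7.05 ± 1.85, SESN2 at 3.61 ± 0.410 and ASNS at 0.562 ± 0.0639 CPM per kb came next. The ASNS value may be too low, since 99.5% of its canonical transcript is shared with another gene on the same strand in GENCODE. DDIT4 and CEBPB were neighbours whose levels differed by less than the SD of either gene, and the ranges of mean ± SD of TRIB3 and DDIT3 overlapped. The raw counts behind these levels ran from 7710 to 11066 per library for ATF4 and from only 46 to 116 for ASNS.

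Among the transcription factors, ATF4 itself (chromosome 22, 39519695 to 39522683, plus strand on hg38) was slightly lower after TEPA. Its levels were 266, 238 and 237 CPM in untreated cells, 208, 217 and 211 CPM at 8 h and 217, 231 and 214 CPM at 24 h. All 6 treated libraries were below the 3 untreated libraries, and the libraries of both times overlapped. The log2 fold change was -0.22 ± 0.047 (SE, adjusted p = 9.9e-04) at 8 h and -0.16 ± 0.047 (SE, adjusted p = 8.6e-03) at 24 h, which are 0.857 and 0.894 times the untreated level. Both calls remained when any of the libraries compared was left out, although the change at 24 h was -0.11 without untreated replicate 1, the highest library. Between both times the difference was 0.06, with a 95% interval from -0.03 to 0.15, and did not pass (adjusted p = 0.29).

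ATF5 (chromosome 19, 49928702 to 49933935, plus strand), a close relative of ATF4 whose mRNA is also controlled by upstream reading frames and which acts in mitochondrial stress, fell further with time. It was at 33.0, 39.0 and 36.5 CPM in untreated cells, 31.7, 31.4 and 31.6 CPM at 8 h and 22.8, 24.5 and 22.1 CPM at 24 h. The 3 groups did not overlap, and the 8 h libraries lay close together just under the lowest untreated library. The change was -0.20 ± 0.061 (SE, adjusted p = 0.014) at 8 h and -0.65 ± 0.062 (SE, adjusted p = 4.0e-07) at 24 h, and 24 h was lower than 8 h by 0.45 on the log2 scale (adjusted p = 1.8e-05). Without untreated replicate 2 it no longer passed at 8 h, where the change was -0.14 (adjusted p = 0.065).

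CEBPB (chromosome 20, 50190830 to 50192668, plus strand), a C/EBP protein that can pair with ATF4, was lower at 8 h, while at 24 h its level did not pass the test. Levels were 173, 148 and 147 CPM in untreated cells, 102, 115 and 117 CPM at 8 h and 146, 153 and 144 CPM at 24 h. The 8 h libraries were below all others, and the 24 h libraries overlapped the untreated ones. The change at 8 h was -0.49 ± 0.061 (SE, adjusted p = 9.3e-06). At 24 h it was -0.08, with a 95% interval from -0.20 to 0.04, and did not pass (adjusted p = 0.28), while 24 h was higher than 8 h by 0.40 ± 0.061 (SE, adjusted p = 4.3e-05).

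DDIT3 (chromosome 12, 57516588 to 57521737, minus strand) encodes CHOP, the factor that links lasting ER stress to cell death, and it showed the largest fall of the 10 genes at 24 h. It was at 9.84, 10.8 and 9.23 CPM in untreated cells, 7.25, 6.54 and 6.42 CPM at 8 h and 4.26, 4.63 and 4.12 CPM at 24 h. The groups did not overlap and stepped down at each time. The change was -0.57 ± 0.089 (SE, adjusted p = 8.3e-05) at 8 h and -1.20 ± 0.093 (SE, adjusted p = 4.0e-08) at 24 h, 0.435 times the untreated level, and 24 h was below 8 h by 0.63 on the log2 scale (adjusted p = 4.5e-05). Leaving out single libraries kept the 24 h value between -1.25 and -1.14. In GENCODE, 11.6% of its canonical transcript lies in exons of another protein-coding gene on the same strand. Where both genes are annotated, reads wholly there cannot be assigned to either. The other gene has no gene symbol and was sought in the count table only by its GENCODE identifier, which is not listed there. The table could hold that gene under another name, and whether the Ensembl release used for counting holds it was not tested.

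Both feedback genes were lower at 24 h. TRIB3 (chromosome 20, 362835 to 397559, plus strand), a pseudokinase that ATF4 induces and that restrains ATF4, was at 31.0, 27.9 and 27.0 CPM in untreated cells, 26.1, 26.0 and 28.1 CPM at 8 h and 21.9, 24.0 and 21.9 CPM at 24 h. The 8 h libraries overlapped the untreated ones, and the 24 h libraries were below both groups. Its change was -0.10 at 8 h, with a 95% interval from -0.22 to 0.02 (adjusted p = 0.20, not passed), and -0.34 ± 0.063 (SE, adjusted p = 3.1e-04) at 24 h. The fall between 8 h and 24 h was 0.24 on the log2 scale and passed (adjusted p = 4.7e-03).

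PPP1R15A (chromosome 19, 48872212 to 48876059, plus strand) encodes GADD34, which brings a phosphatase to eIF2 and so ends the response. It was at 91.2, 112 and 108 CPM in untreated cells, 124, 117 and 126 CPM at 8 h and 76.1, 77.1 and 71.7 CPM at 24 h. All 8 h libraries were above the untreated ones and all 24 h libraries below them. The change was 0.23 ± 0.061 (SE, adjusted p = 4.9e-03) at 8 h and -0.47 ± 0.062 (SE, adjusted p = 1.1e-05) at 24 h. The rise at 8 h was 0.15 without untreated replicate 1, the lowest library, and still passed (adjusted p = 0.011). Between 8 h and 24 h the fall was 0.71 on the log2 scale (adjusted p = 1.4e-07), the largest of the 10 genes between these times.

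CHAC1 (chromosome 15, 40952962 to 40956512, plus strand) encodes an enzyme that breaks down glutathione and is among the most inducible ATF4 targets, and its promoter window held the element printed above. Levels were 13.7, 10.5 and 8.04 CPM in untreated cells, 11.2, 9.62 and 10.1 CPM at 8 h and 13.5, 14.8 and 12.2 CPM at 24 h. The untreated libraries were spread over a wide range that reached into the 24 h libraries. At 8 h the change was -0.05, with a 95% interval from -0.32 to 0.22 (adjusted p = 0.79), and its sign turned to 0.15 without untreated replicate 1. The rise at 24 h of 0.34 ± 0.13 (SE, adjusted p = 0.046) was 0.54 (adjusted p = 3.5e-04) without untreated replicate 1 and 0.17 (adjusted p = 0.25) without untreated replicate 3. It no longer passed without untreated replicates 2 or 3 or 24 h replicates 1 or 2. The rise from 8 h to 24 h, 0.39 ± 0.14 (SE, adjusted p = 0.024), lost its call in 4 of the 6 fits that left out a library, without 8 h replicates 2 or 3 or 24 h replicates 1 or 2, with values from 0.32 to 0.45. When only the 8 h and 24 h libraries were fitted, this rise was 0.41 and passed (adjusted p = 5.4e-04). The libraries of both times did not overlap.

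ASNS (chromosome 7, 97851677 to 97872542, minus strand) encodes asparagine synthetase, a classic ATF4 target in amino acid supply. It had the lowest counted level of the 10 genes. It was at 1.41, 1.44 and 1.17 CPM in untreated cells, 2.02, 1.73 and 2.31 CPM at 8 h and 1.98, 2.69 and 2.84 CPM at 24 h. All treated libraries were above the untreated ones, and the libraries of both times overlapped. The change was 0.59 ± 0.19 (SE, adjusted p = 0.016) at 8 h and 0.88 ± 0.18 (SE, adjusted p = 6.5e-04) at 24 h. At 8 h it no longer passed without untreated replicate 3 (0.49, adjusted p = 0.069) or 8 h replicate 3 (0.48, adjusted p = 0.078). In GENCODE on hg38, 2374 of the 2385 bases of its canonical transcript, 99.5%, lie in exons of a lncRNA on the same strand. Reads in shared exons are not assigned to either gene under the counting settings given, so this level may cover only a small share of ASNS mRNA. The changes above rest on the same counts, and whether they hold for the whole ASNS mRNA was not tested. The lncRNA has no gene symbol and was sought in the count table only by its GENCODE identifier, which is not listed there. The table could hold the lncRNA under another name, and whether the Ensembl release used for counting holds it was not tested.

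Of the genes that act on mTORC1, the kinase complex that promotes growth, DDIT4 was called lower and SESN2 higher at 8 h. DDIT4 (chromosome 10, 72273919 to 72276036, plus strand), also called REDD1, inhibits mTORC1 and is induced by many stresses including hypoxia. It was at 192, 119 and 135 CPM in untreated cells, 64.9, 70.6 and 68.8 CPM at 8 h and 105, 112 and 109 CPM at 24 h. The 8 h libraries were lowest, the 24 h libraries lay between them and the untreated ones, and untreated replicate 1 was far above the other two. The change at 8 h, -1.12 ± 0.12 (SE, adjusted p = 1.5e-06), was the largest of the 10 genes at that time, 0.459 times the untreated level, and stayed between -1.27 and -0.90 when single libraries were left out. At 24 h it was -0.45 ± 0.12 (SE, adjusted p = 3.9e-03) but -0.22 (adjusted p = 1.5e-03) without untreated replicate 1, and 24 h was above 8 h by 0.67 ± 0.12 (SE, adjusted p = 1.7e-04).

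SESN2 (chromosome 1, 28259518 to 28282491, plus strand), a leucine sensor that also restrains mTORC1, was slightly higher at 8 h. Levels were 14.1, 11.5 and 11.9 CPM in untreated cells, 14.4, 14.8 and 15.0 CPM at 8 h and 13.8, 12.8 and 13.0 CPM at 24 h. The 8 h libraries lay just above the highest untreated library, and those at 24 h lay within the untreated range. The rise at 8 h of 0.24 ± 0.078 (SE, adjusted p = 0.020) lost its call in 4 of 6 fits that left out a library, without untreated replicates 2 or 3 or 8 h replicates 2 or 3, with values from 0.17 to 0.33. At 24 h the change was 0.08, with a 95% interval from -0.07 to 0.23 (adjusted p = 0.41, not passed), and it passed only without untreated replicate 1, at 0.17 (adjusted p = 0.048).

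Untreated replicate 1 was the highest untreated library for 6 of the 10 genes and untreated replicate 3 the lowest for 6. The mitochondrial share of counts, higher in the 8 h libraries, moved with the changes that were seen at 8 h and not at 24 h, such as those of CEBPB, and its part in them was not tested.

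**Figure D2:**
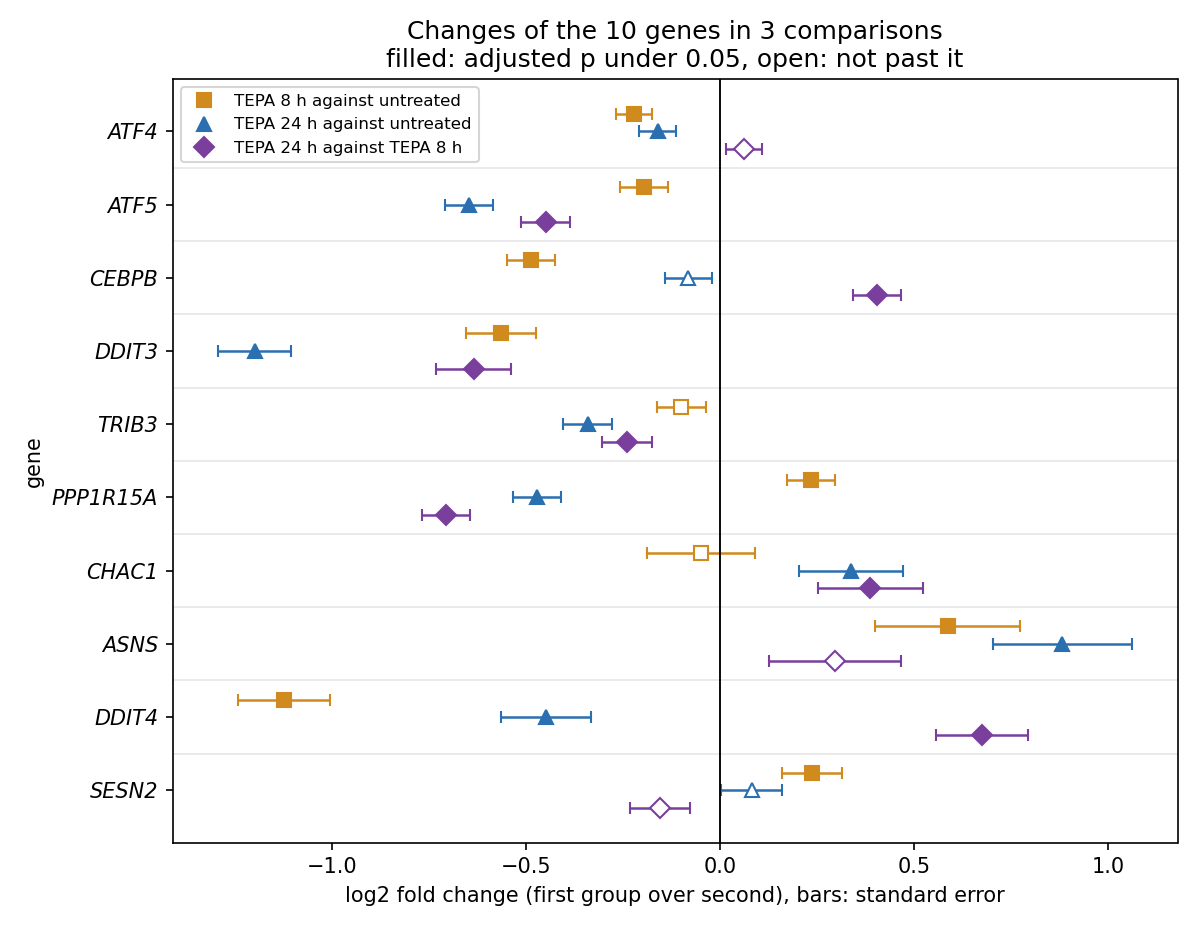
log2 fold change (x axis) of each gene (y axis) in 3 comparisons, with bars for the standard error, filled where the adjusted p was under 0.05 and open where it was not. DDIT3 at 24 h and DDIT4 at 8 h lie farthest to the left at -1.20 and -1.12, and PPP1R15A changes side between 8 h and 24 h.

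The direct comparison of both times gave calls in both directions. DDIT3, TRIB3, PPP1R15A and ATF5 were lower at 24 h than at 8 h, and CHAC1, DDIT4 and CEBPB were higher. That is 3 of 10 called higher and 4 lower, where 26.0% of all tested genes were called higher and 28.8% lower. Beyond a log2 fold change of 0.5 there were 3 genes, against 21.2% of all tested genes, and the libraries of both times did not overlap for 8 genes, against 62.0%. The median was -0.05, beside -0.02 over all tested genes.

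The genes with the most similar pattern over the 9 libraries were found by the root mean square difference of log2 CPM, centred on each gene's mean, among 10812 other genes. For ATF4 they were STX5, HMG20B and AP2A2, with differences from 0.022 to 0.027. For TRIB3 they were ACVR1B, TBC1D9B and ZFYVE27, from 0.034 to 0.036. VPS4A, NOP14-AS1 and PRKAR1B were nearest to DDIT3, from 0.075 to 0.082, and VPS4A went from 56.1 to 40.1 and 24.8 CPM. NFKBIZ, LINC00623 and TNFSF12 were nearest to CHAC1, from 0.11 to 0.13. A gene that did not vary at all would differ by 0.11 from ATF4, 0.16 from TRIB3, 0.49 from DDIT3 and 0.26 from CHAC1.

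The genes upstream of ATF4 moved both ways. The list holds 18 genes for the eIF2 kinases and their activators, eIF2, its exchange factor eIF2B and the phosphatase. At 8 h 7 were called higher and 7 lower, and at 24 h 5 higher and 5 lower. Over all tested genes, 25.2% were called higher and 24.5% lower at 8 h, and 25.7% and 26.8% at 24 h. The counts of the lists below stand beside the same shares. EIF2AK3, which encodes the ER stress kinase PERK, was at 37.2, 32.6 and 33.9 CPM in untreated cells, 27.4, 27.3 and 26.4 CPM at 8 h and 24.8, 26.2 and 27.5 CPM at 24 h. Its treated libraries were all below the untreated ones, with changes of -0.35 ± 0.059 (SE, adjusted p = 1.3e-04) and -0.40 ± 0.058 (SE, adjusted p = 3.0e-05). EIF2AK2, which encodes the RNA-sensing kinase PKR, rose by 0.26 and 0.46 on the log2 scale, and EIF2S3, the gamma subunit of eIF2, by 0.42 and 0.43. DELE1, which relays mitochondrial stress to the kinase HRI, rose by 0.45 at 8 h and 0.18 at 24 h, while OMA1, the protease that cleaves it, fell by 0.32 and 0.24. The call of OMA1 at 24 h was lost in 1 of 6 fits that left out a library. EIF2B3, a subunit of eIF2B, fell by 0.22 at 8 h and by 0.62 at 24 h.

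Relatives of the 10 genes did not follow a common course. Of 8 tested paralogs, 4 were called lower and 0 higher at 8 h in edgeR, and 2 lower and 4 higher at 24 h. CEBPA, a C/EBP factor of differentiated cells, was at 5.23, 4.55 and 5.00 CPM in untreated cells, 1.10, 1.86 and 1.47 CPM at 8 h and 1.12, 1.25 and 0.862 CPM at 24 h, changes of -1.74 and -2.17 on the log2 scale. CEBPD, a C/EBP factor of acute responses, was at 48.2, 29.7 and 32.6 CPM, then 13.0, 16.1 and 14.5 CPM and then 51.5, 56.3 and 53.2 CPM. It thus fell at 8 h (-1.34) and was above untreated cells at 24 h (0.55, adjusted p = 1.5e-03), with untreated replicate 1 again the highest of its group. Among the relatives of TRIB3, TRIB1 fell at both times (-0.31 and -0.74), and its call at 8 h was lost in 1 of 6 fits that left out a library. TRIB2 fell at 8 h (-0.44) and rose at 24 h (0.32).

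Other ATF4 targets in stress signalling were mostly lower at 8 h and mixed at 24 h. Of 13 tested, 1 was called higher and 8 lower at 8 h, and 7 higher and 3 lower at 24 h. GDF15, a secreted stress hormone, was at 45.0, 26.9 and 30.4 CPM in untreated cells, 9.05, 9.23 and 9.90 CPM at 8 h and 6.55, 6.51 and 6.48 CPM at 24 h. Its treated libraries were all far below the untreated ones, with changes of -1.86 ± 0.14 (SE, adjusted p = 6.7e-08) and -2.38 ± 0.15 (SE, adjusted p = 3.4e-09). KLHL24, an adaptor of a ubiquitin ligase, fell at 8 h by 1.11 on the log2 scale. At 24 h it was above untreated cells by 0.22, which did not pass. VLDLR, a lipoprotein receptor, fell by 0.54 and 0.63. ADM2, a peptide hormone, rose by 0.51 and 0.90, and STC2, a secreted glycoprotein, rose by 0.88 at 24 h from a level of 1.96 CPM. The count of genes called higher at 8 h was 2 without untreated replicate 1 or untreated replicate 3.

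Among ATF4 targets in amino acid supply, a few transporters moved. Of 17 tested, 5 were called higher and 1 lower at 8 h, and 6 higher and 3 lower at 24 h, or 7 higher and 2 lower with upper-quartile scaling. SLC7A11, the cystine transporter that feeds glutathione synthesis, was at 167, 218 and 192 CPM in untreated cells, 245, 215 and 221 CPM at 8 h and 89.9, 79.2 and 103 CPM at 24 h. Its 24 h libraries were far below all others (-1.09 ± 0.091 (SE, adjusted p = 9.4e-08)), while the call of 0.24 at 8 h was lost in 4 of 6 fits that left out a library, at 0.14 (adjusted p = 0.14) without untreated replicate 1, and with DESeq2. SLC7A5 and SLC3A2, which form a transporter of large amino acids, rose by 0.35 and 0.39 at 8 h. SLC38A2, a transporter that responds to amino acid lack, rose by 0.74 at 24 h and CTH, which makes cysteine, by 0.72. PSPH, of serine synthesis, fell by 0.22 at 8 h (-0.14 without untreated replicate 1) and ALDH18A1, of proline synthesis, by 0.17 at 24 h. The 5 genes called higher at 8 h became 3 without untreated replicate 3 or 8 h replicate 1, and the 1 called lower became 2 without 8 h replicate 1.

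Genes that charge tRNAs with amino acids were called in both directions. Of 13 tested, 3 were called higher and 8 lower at 8 h, and 2 higher and 6 lower at 24 h, with 4 higher and 6 lower under upper-quartile scaling. AARS1, for alanine, was at 172, 158 and 153 CPM in untreated cells, 144, 143 and 146 CPM at 8 h and 99.6, 103 and 95.3 CPM at 24 h. The groups did not overlap, and the change at 24 h was -0.70 ± 0.045 (SE, adjusted p = 5.0e-09). WARS1, for tryptophan, fell by 0.29 and 0.57 on the log2 scale and SARS1, for serine, by 0.30 and 0.46. LARS1, for leucine, rose by 0.28 and 0.38, and XPOT, which exports tRNAs from the nucleus, by 0.18 and 0.20.

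Most of the genes listed for the neighbouring arm of the ER stress response were called lower. Over all tested genes, 24.5% were called lower at 8 h and 26.8% at 24 h. Of 14 targets of ATF6 and XBP1, which raise chaperones and quality control in the ER, 0 were called higher and 10 lower at 8 h in edgeR, and 1 higher and 10 lower at 24 h. DNAJB9, a cofactor of the chaperone BiP, was at 17.0, 15.0 and 16.1 CPM in untreated cells, 10.9, 10.1 and 10.2 CPM at 8 h and 9.77, 9.34 and 12.2 CPM at 24 h. All of its treated libraries were below the untreated ones (-0.62 and -0.63 on the log2 scale). HERPUD1, of ER-associated degradation, fell by 0.55 at 8 h and 0.29 at 24 h, and SDF2L1, an ER chaperone component, by 0.79 at 24 h. The gene called higher, SEL1L (0.17), was 0.11 without 24 h replicate 3 and no longer passed. HSPA5, which encodes BiP and was chosen after its values were seen, fell by 0.42 and 0.47.

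Among mitochondrial chaperones and proteases, HSPD1 and TRAP1 were called higher at 8 h and lower at 24 h. Of 7 tested, 3 were called higher and 0 lower at 8 h in edgeR, with 1 lower by DESeq2, and 0 higher and 5 lower at 24 h, with 1 higher under upper-quartile scaling or without untreated replicate 1 or 24 h replicate 3. HSPD1, the chaperonin of the matrix, was at 737, 889 and 839 CPM in untreated cells, 1049, 999.8 and 997 CPM at 8 h and 687, 674 and 696 CPM at 24 h. Its 8 h libraries were above and its 24 h libraries below the untreated ones (0.30 and -0.26 on the log2 scale). TRAP1, a mitochondrial chaperone, did likewise (0.24 and -0.42), and the 8 h libraries were also those with the higher mitochondrial share of counts, whose part was not tested.

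**Figure D3:**
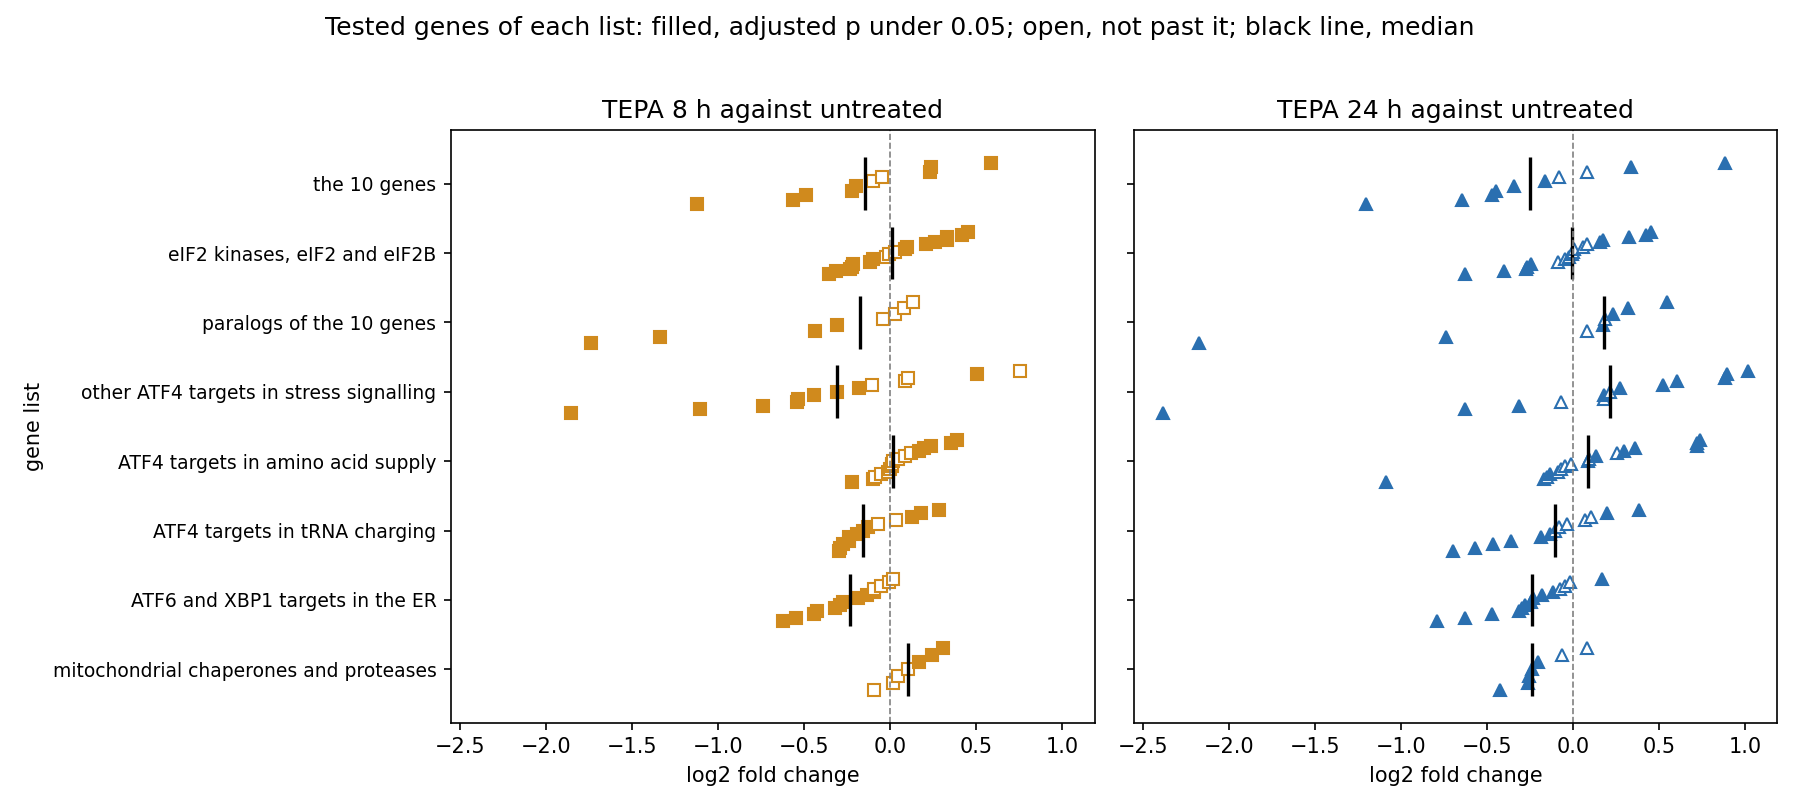
log2 fold change (x axis) of each tested gene of the 10 genes and of 7 related lists (rows), at 8 h (left) and 24 h (right) against untreated cells, filled where the adjusted p was under 0.05, with a black line at the median of each list. The median of other ATF4 targets in stress signalling went from -0.31 at 8 h to 0.22 at 24 h, while that of ATF6 and XBP1 targets was -0.23 and -0.24.

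Beside medians of -0.00 and 0.00 over all tested genes, the list medians at 8 h and 24 h were 0.01 and -0.00 for the eIF2 machinery, -0.18 and 0.18 for the paralogs, 0.01 and 0.09 for amino acid supply, -0.16 and -0.10 for tRNA charging, and 0.10 and -0.24 for mitochondrial chaperones and proteases. These counts and medians describe the lists, which were not tested as sets.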

How the data were processed

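After a FastQC check, HISAT2 was used by the authors for alignment to hg38 and featureCounts for strand-specific counting of read pairs in exons, summed by gene name of an Ensembl annotation. What they deposited is an unnormalised count for each gene in each replicate. Tool versions are not given in the sources used here. A read in exons of more than 1 gene is not counted, which lowers genes with shared exons.

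From the counts, edgeR 4.0.16 in R 4.3.3 kept genes by filterByExpr (minimum count 10), scaled libraries by TMM and fitted all 9 libraries in a quasi-likelihood model with group as the only term. P-values were adjusted over all 16556 genes, and SE is the size of the log2 fold change over the square root of F. With 3 libraries against 3, an exact permutation test cannot go below 0.1. Replicates differed by more than sampling noise, with a chi-square per degree of freedom from 2.36 to 20.6. The largest values, 20.6 and 8.34, were those of untreated replicate 1 against untreated replicates 2 and 3. Gene models are from GENCODE 44 on hg38 and promoters from RefSeq. The procedure was run on simulated counts of 15803 genes, in which far fewer genes changed than in these data, and only at 8 h. Of genes given log2 changes of -1, -0.5, 0.5 and 1, it called 87.5%, 74%, 82% and 96% in the right direction. Scaling under changes as wide as those seen here was not tested by it.

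The 10 genes and the lists were chosen with earlier results of these data known. From each list, the text names up to 2 genes with the largest rise and 2 with the largest fall at each time among called genes whose groups did not overlap and whose mean count was 100 or more, and for ATF4, DDIT3, TRIB3 and CHAC1 the 3 genes of at least 5 CPM with the nearest pattern (log2 CPM with a prior count of 2). Alternatives were other scalings, DESeq2 1.42.0, other filters, a fold limit, only the groups compared, a replicate block and leaving out each library. The other cell lines of the study were not analysed here.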

Additional observations from a re-analysis of the deposited data

Results flagged for a closer look

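The effects at 8 h and 24 h, measured against the same untreated libraries, differed for 7 of the 10 genes by the direct test of 24 h against 8 h. DDIT3 (-0.63), TRIB3 (-0.24), PPP1R15A (-0.71) and ATF5 (-0.45) were lower at 24 h on the log2 scale. CHAC1 (0.39), DDIT4 (0.67) and CEBPB (0.40) were higher at 24 h. Adjusted p-values ran from 1.4e-07 for PPP1R15A to 0.024 for CHAC1, whose call was lost in 4 of 6 fits that left out a library. The untreated libraries entered these comparisons through the gene filter, the scaling and the estimate of spread, which came from all 9 libraries. Without them the CHAC1 value was 0.41 (adjusted p = 5.4e-04), and the ATF4 value moved from 0.06 to 0.09 and was called as well (adjusted p = 0.038). Which of these steps made the difference was not tested. The background was that 26.0% of all tested genes were called higher and 28.8% lower.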

How the results depend on the processing

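No gene of the 10 that was called changed direction under any alternative. RLE and upper-quartile scaling, DESeq2 and both filters gave counts of the 10 genes within 1.5 times those reported, and no scaling moved the median of all genes beyond 0.03. With a log2 fold change beyond 0.5 required, 1 gene was higher and 2 lower in each of the 3 comparisons. With only the 2 groups compared, 1 gene in place of 2 was higher at 24 h, since CHAC1 no longer passed (adjusted p = 0.073), and ATF4 was called higher at 24 h than at 8 h (0.09, adjusted p = 0.038). When single libraries were left out, 1 to 3 genes were higher at 8 h and 1 to 3 at 24 h, while 4 to 5 were lower at 8 h and 6 at 24 h. Between 24 h and 8 h, 2 to 3 were higher and 4 lower.

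Same-numbered replicates did not deviate together (correlations from -0.080 to 0.038), and those with different numbers gave a similar range (-0.054 to 0.073). Such correlations cannot show how cultures were handled, so whether the numbers pair the samples is not known here. A replicate block moved all calls from 8216 to 7779 at 8 h, from 8688 to 8355 at 24 h and from 9079 to 8758 between the times, and changed no call of the 10 genes. At the counts of ASNS, from 46 to 116 per library, small differences were not detectable.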
